A study of Mus musculus with 12 samples.

Results

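The response of murine pulmonary endothelial cells to Tri-DAP, a ligand of the bacterial sensor NOD1, was read from 8 of the 12 TaqMan low-density arrays (TLDAs) of the study. These are the 4 arrays whose labels name unstimulated control cells, numbered 4, 7, 10 and 13, and the 4 whose labels name Tri-DAP, numbered 5, 8, 11 and 14. The remaining 4 arrays carry RNA of cells given the NOD2 ligand MDP and entered only the shared estimate of the spread and the choice of a second reference. The study asked which endothelial miRNAs respond to NOD ligands.

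The cells were primary cultures from lungs of male C57BL/6N wild type mice, taken with magnetic beads against CD144 and CD31 and grown to confluence. Each isolation pooled 3 mice aged 6 to 10 weeks. Before stimulation the cultures were starved for 2 hours, after which Tri-DAP was given at 10 μg/mL for 6 hours, and control cultures received no ligand. No allele or transgene was carried in either group. The paper describes 4 independent cell isolations for the arrays, so that each isolation may have supplied a control, a Tri-DAP and an MDP culture. It does not pair the arrays one by one. The labels do not say which arrays share an isolation either. The main tests were therefore unpaired and do not use any sharing of isolations between the groups. Their p-values measure the spread between arrays, part of which may be the spread between isolations. A fit with consecutive label numbers as a block is given beside them.

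NOD1 is a cytosolic receptor that recognises diaminopimelic acid, a building block of the peptidoglycan of Gram-negative and some Gram-positive bacteria. Once bound, it recruits the kinase RIP2 and activates NF-κB, which in endothelial cells leads to the transcription of cytokines and adhesion molecules. MiRNAs are short RNAs that pair with mRNAs mainly through bases 2 to 8, the seed, and lower the stability and translation of their targets. MiR-146a and miR-155 are known as products of NF-κB signalling, and miR-147-3p as a miRNA induced in macrophages by Toll-like receptors.

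Mature sequences of some of the miRNAs named below are given here 5′ to 3′, as listed by RefSeq on GRCm38.p6, with the seed in capitals. For the called miRNAs miR-147-3p, miR-343, miR-124-3p and miR-142-3p no matching sequence was found in the listing used. The first set holds 4 miRNAs described singly below, of which the first and second were called with at least 1 reference and the others with neither.
miR-23a-3p: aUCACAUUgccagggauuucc
miR-423-5p: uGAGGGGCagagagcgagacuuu
miR-448-3p: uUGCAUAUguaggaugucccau
miR-337-5p: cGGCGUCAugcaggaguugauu
The second set is a pair of miRNAs from different chromosomes that share a seed and whose means were both below the control.
miR-425-5p: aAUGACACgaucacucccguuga
miR-489-3p: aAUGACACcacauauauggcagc
The third set holds miRNAs that the study links to NOD signalling and that were measured on every array, and it includes the 3 members of the miR-29 family, which share one seed and differ in later bases.
miR-10a-5p: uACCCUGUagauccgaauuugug
miR-125a-5p: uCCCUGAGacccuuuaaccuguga
miR-146a-5p: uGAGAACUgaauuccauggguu
miR-29a-3p: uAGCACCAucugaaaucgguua
miR-29b-3p: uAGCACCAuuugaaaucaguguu
miR-29c-3p: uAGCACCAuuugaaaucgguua

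MiR-23a-3p lies at chr8:84208563-84208583 on the plus strand, next to miR-27a-3p at chr8:84208727-84208747, and within no protein-coding gene. MiR-423-5p lies at chr11:77078122-77078144 on the minus strand within the span of Nsrp1. MiR-448-3p at chrX:147158281-147158302 lies within Htr2c, miR-489-3p at chr6:3721922-3721944 within Calcr, and miR-425-5p at chr9:108568789-108568811 within Dalrd3. MiR-337-5p lies at chr12:109585818-109585839, in the imprinted Dlk1-Dio3 region.

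A TLDA reports for each assay the PCR cycle at which fluorescence crosses a threshold (Ct), so that 1 cycle less stands for 2-fold more RNA, and a Ct of 40 marks a well that stayed under the threshold. Of the 375 miRNA assays, 310 were measured on at least 1 of the 8 arrays and 181 on all 8, and between 231 and 252 were measured per array. The level of a miRNA is given here on the log2 scale as the Ct of a reference minus its own Ct. The first reference, U6, is the mean of its 4 wells. The second is the mean Ct of the 174 miRNAs that were under 40 on each of the 12 arrays. A difference is the mean of the Tri-DAP arrays minus that of the control arrays, it was tested for 237 miRNAs with at least 2 measured wells in each group. Below, "called" means an unadjusted p under 0.05 in limma.

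The small nuclear RNA U6 varied far more among the Tri-DAP arrays than among the controls. Its mean Ct was 19.83, 20.04, 19.26 and 19.45 on control arrays 4, 7, 10 and 13, and 19.68, 21.60, 18.56 and 18.28 on Tri-DAP arrays 5, 8, 11 and 14. Tri-DAP array 8 was the latest of the 8 and Tri-DAP arrays 11 and 14 the earliest. The 4 U6 wells of one array lay within 0.24 cycles on Tri-DAP array 8 and were spread over 4.39 cycles on Tri-DAP array 14. The mean of the 174 miRNAs ran from 28.22 to 29.02 on the control arrays and from 28.28 to 29.70 after Tri-DAP.

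Neither U6 nor any other reference RNA separated the groups. Two-sided exact permutation tests over the 4 and 4 arrays gave p = 0.94 for U6, 0.77 for the mean of the 174 miRNAs, 1 for snoRNA202, 0.86 for U87, 0.80 for Y1 and 0.29 for snoRNA135, and the Benjamini-Hochberg adjusted p over these 6 was 1. The smallest p that 4 against 4 arrays allow is 0.029. Relative to U6, the mean level of the 174 miRNAs was -9.02 ± 0.28 on the control arrays (SD, n = 4) and -9.25 ± 0.85 on the Tri-DAP arrays (SD, n = 4). The exact permutation p of that difference, -0.23, was 0.66.

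**Figure D1:**
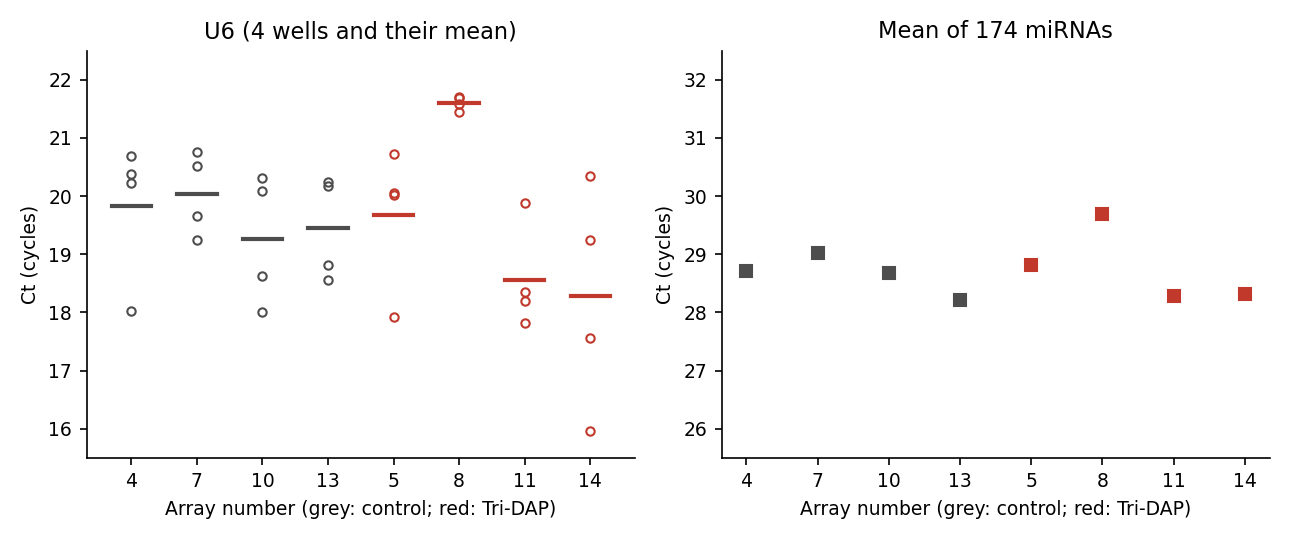
Ct in cycles on each array, for the 4 U6 wells (left, circles, with their mean as a bar) and for the mean over the 174 miRNAs of the second reference (right, squares), with control arrays in grey and Tri-DAP arrays in red. The U6 mean runs from 18.3 to 21.6 across the Tri-DAP arrays, while the mean of the miRNAs runs from 28.3 to 29.7.

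The reference decided how the 4 Tri-DAP arrays stood to the control mean. Relative to U6, the median of the 174 miRNAs lay at -0.01 on Tri-DAP array 5, 1.05 on array 8, -0.70 on array 11 and -1.11 on array 14. Relative to the second reference the same medians were 0.12, 0.13, 0.00 and -0.09. That reference is the mean of these same 174 miRNAs, so it sets their medians near 0 and removes any spread they share. With U6, array 8 stood apart on the higher side and arrays 11 and 14 on the lower. The median SD of a miRNA across the control arrays was 0.72 with U6 and 0.69 with the second reference. Across the Tri-DAP arrays it was 1.17 with U6 and 0.67 with the second reference, and with U6 the SD was larger after Tri-DAP for 124 of the 174 miRNAs.

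Endothelial identity was checked through 4 miRNAs. MiR-126-3p, which is processed from an intron of the endothelial gene Egfl7 and is typical of endothelium, crossed the threshold earliest of the miRNAs tested. Its Ct was 19.8, 19.4, 19.3 and 20.3 on the control arrays and 19.3, 20.2, 18.6 and 20.4 on the Tri-DAP arrays. Arrays 13 and 14 were the latest of their groups, and the groups overlapped. All of miR-126-3p, miR-126-5p, miR-221 and miR-222 were measured on 8 of 8 arrays, and their differences ran from -0.24 to -0.05 with U6 and from -0.01 to 0.19 with the second reference.

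A second list, of miRNAs abundant in smooth muscle cells, pericytes and fibroblasts, varied between arrays more than the endothelial miRNAs did. MiR-145, the best known miRNA of contractile smooth muscle, had a Ct of 29.9, 33.1, 27.3 and 23.1 on control arrays 4, 7, 10 and 13. Its Ct on Tri-DAP arrays 5, 8, 11 and 14 was 29.3, 31.8, 27.0 and 23.4. In both groups the second array was lowest in level and the last highest. Over miR-143, miR-145, miR-199a-3p and miR-214, the median departure from the control mean, relative to the second reference, was -1.03, -2.43, 0.66 and 2.81 on the control arrays and -0.66, -2.07, 0.53 and 2.88 on the Tri-DAP arrays. The median difference of these 4 miRNAs between the groups was -0.10 with U6 and 0.14 with the second reference, and 0 of them was called.

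**Figure D2:**
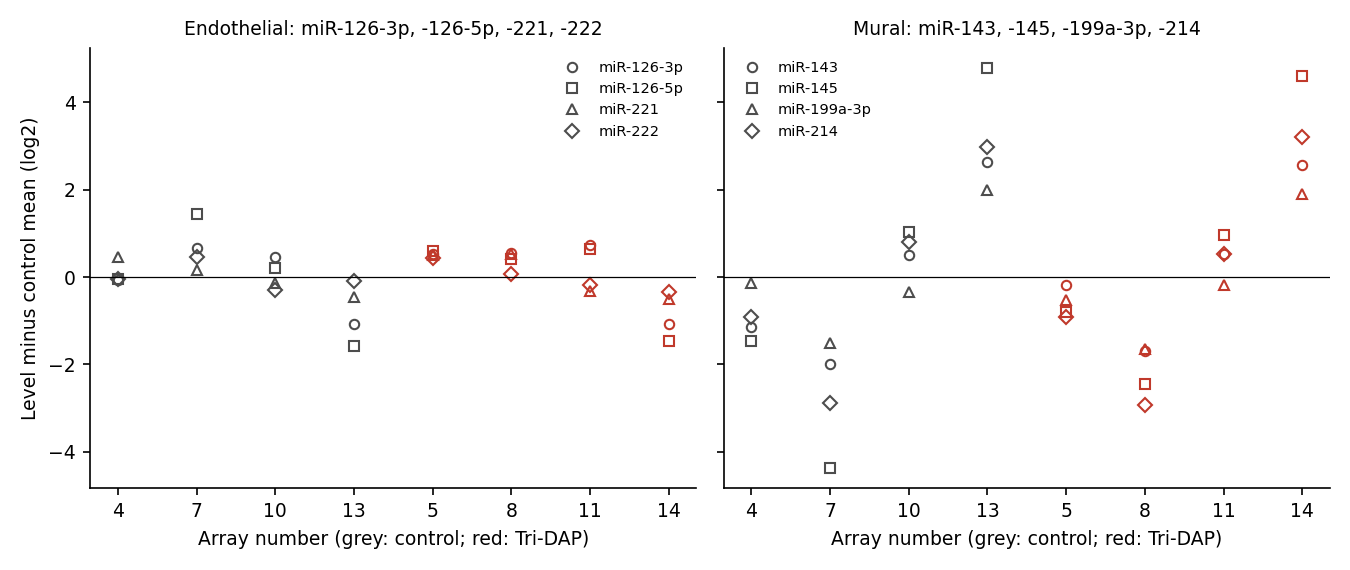
Level of 4 endothelial miRNAs (left) and 4 miRNAs of mural cells and fibroblasts (right) on each array, relative to the mean of the 174 miRNAs and to the mean of the control arrays, in log2 units. Control arrays are grey and Tri-DAP arrays red. The mural list runs from a median of -2.43 on control array 7 to 2.88 on Tri-DAP array 14, in a like order within both groups.

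The other marker lists were near the limit of the assay or did not separate the groups. The leukocyte miRNAs miR-223 and miR-150 differed by -0.24 and -0.56 with U6 and were not called, miR-142-5p reached the threshold on none of the 8 arrays, and miR-142-3p is described below. The erythroid miRNAs miR-451 and miR-486 were measured in 3 control wells and 1 Tri-DAP well. Of 7 epithelial miRNAs, 6 were tested, with a median of -0.07 with U6 and 0.35 with the second reference and 0 called. Of the 4 muscle miRNAs, miR-1 alone could be tested. Its difference was -3.03 with U6 and -2.32 with the second reference, from 3 control and 2 Tri-DAP wells, and it was called with neither. Its measured wells did not overlap between the groups with U6, but did with the second reference. MiR-1 was called without control array 13 with either reference, and with U6 when consecutive label numbers were taken as a block. In RNA of a whole culture, fewer cells of a type and less RNA per cell cannot be told apart.

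After Tri-DAP most means lay slightly below the control when U6 was the reference, and not when the second reference was used. With U6, 178 of the 237 miRNAs tested were below the control, which is 75.1%, with a median difference of -0.24. With the second reference, 118 were below, 49.8%, with a median of 0.01. That reference is itself the mean of 174 of these miRNAs, so it removes a shift common to them and cannot show one. Between the references 60 miRNAs changed sides. Another 118 were below and 59 above with both.

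Larger differences depended on the reference as well. More than 2-fold below the control were 39 miRNAs with U6 (16.5%) and 26 with the second reference (11%), and the same 26 met the limit with both. More than 2-fold above it were 8 with U6 (3.38%) and 13 with the second reference (5.49%), and 8 of them with both. Leaving out Tri-DAP array 8 raised the share more than 2-fold below to 27.2% with U6, and leaving out Tri-DAP array 11 lowered it to 10.4%.

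The abundant miRNAs had the narrowest range of differences. Of the 24 miRNAs tested with a mean Ct under 25, among them miR-126-3p, miR-24, miR-19b and miR-29a, 24 were below the control with U6 and 11 with the second reference. Their differences ran from -0.74 to -0.03 with U6 and from -0.31 to 0.20 with the second reference, with medians of -0.22 and 0.02. Among the 91 with a mean Ct of 25 to under 30 the medians were -0.15 and 0.08, so with U6 the most abundant class did not have the smallest median difference. The 117 with a mean Ct of 30 to under 35 had medians of -0.38 and -0.12. This class held 33 of the 39 miRNAs more than 2-fold below the control and 3 of the 4 calls with U6. It also had the larger errors, with a median SE of 0.997 with U6, against 0.644 in the most abundant class.

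**Figure D3:**
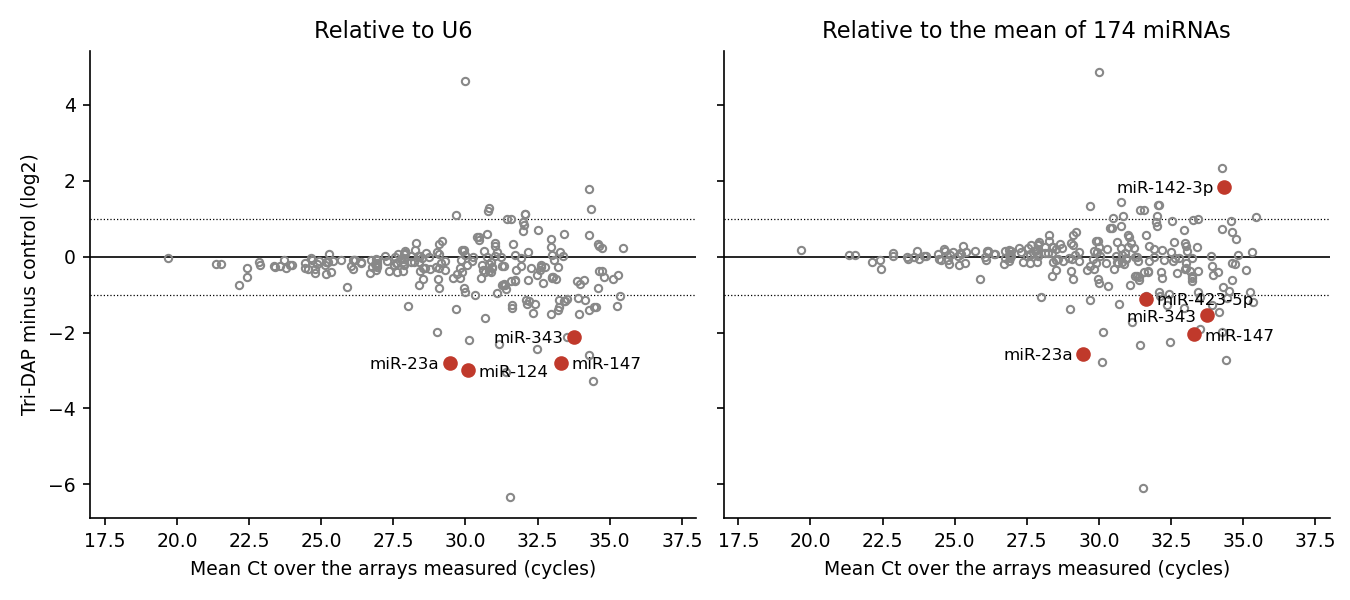
Difference between Tri-DAP and control in log2 units against the mean Ct over the arrays on which a miRNA was measured, for the 237 miRNAs tested, relative to U6 (left) and to the mean of the 174 miRNAs (right). Filled points were called at an unadjusted p under 0.05 in limma, and dotted lines mark 2-fold. All calls lie at a mean Ct above 29, and with the second reference the abundant miRNAs under Ct 25 lie between -0.31 and 0.20.

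With U6, 4 of the 237 miRNAs were called, which is 1.69%, and all 4 were lower after Tri-DAP. In order of p these were miR-147-3p, miR-23a-3p, miR-343 and last miR-124-3p. With the second reference 5 were called, 2.11%, of which miR-147-3p, miR-423-5p, miR-343 and miR-23a-3p were lower, and miR-142-3p was higher. Called with both were 3 miRNAs. With the Benjamini-Hochberg adjustment 0 were called with either reference, and the smallest adjusted p from limma was 0.998 with U6. Taking consecutive label numbers as a block, a grouping no label states, gave 9 calls of 236 with U6 and 13 with the second reference. That grouping was chosen after seeing the data, and 0 of these calls passed the adjustment. The count with U6 also depended on single arrays. Leaving out Tri-DAP array 5 gave 1 call, Tri-DAP array 8 gave 12 and control array 7 gave 7.

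MiR-147-3p gave the smallest p with both references. Relative to U6 its level was -12.36, -13.44 and -11.67 on control arrays 4, 7 and 13, and -13.84, -16.16 and -15.87 on Tri-DAP arrays 5, 11 and 14. All 3 Tri-DAP values lay below all 3 control values, and control array 10 and Tri-DAP array 8 reached no threshold. The difference was -2.80 (SE 0.91), that is a level of 0.14-fold, with an unadjusted p of 0.014 in limma. It was -2.05 (SE 0.67) with the second reference. With 3 values against 3 the two-sided exact permutation test cannot go below 0.10, which is what it gave. The call with U6 was lost without Tri-DAP array 11, at -2.36, and that with the second reference without Tri-DAP array 11 or 14 or control array 13, at -1.65, -1.96 and -1.69. It was also lost with wells at 40 kept as values, at -1.51.

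Of the miRNAs called with both references, miR-23a-3p alone was measured on all 8 arrays. Relative to U6 it stood at -8.36, -9.58, -5.76 and -10.36 on the control arrays and at -12.24, -9.28, -11.28 and -12.43 on the Tri-DAP arrays. Control array 10 was the highest by far, and Tri-DAP array 8 lay within the range of the controls. The difference was -2.79 (SE 1.03) with U6 and -2.56 (SE 1.02) with the second reference, and the exact permutation p was 0.086 with both. Without control array 10 the difference with U6 was -1.87 and was no longer called, nor was it without Tri-DAP array 5, at -2.48, or 14, at -2.42. The call with the second reference was lost without Tri-DAP array 5 or 14 or control array 4, and that with U6 was also lost with wells at 40 kept as values, at the same difference.

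MiR-23a-3p is cut from one primary transcript with miR-27a and miR-24, and these did not follow it. MiR-24 also belongs to the miR-23b cluster, so its level does not stand for that transcript alone. MiR-27a-3p had a Ct of 27.7, 27.8, 27.8 and 28.4 on the control arrays and 27.4, 28.3, 27.4 and 28.3 on the Tri-DAP arrays. The groups overlapped, with Tri-DAP arrays 5 and 11 the earliest. Its difference was -0.06 with U6 and 0.17 with the second reference (95% interval -0.78 to 1.13), and that of miR-24 was -0.20 and 0.03 (-1.12 to 1.19). MiR-23b, from the related cluster and of the same family, differed by 0.18 with U6 and 0.42 with the second reference (-0.52 to 1.35).

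MiR-343 is read by an assay designed for the rat. It stood at -13.44, -13.76, -15.49 and -14.26 relative to U6 on the control arrays, and at -15.81 and -16.91 on Tri-DAP arrays 5 and 14. Both measured Tri-DAP values lay below every control value, and Tri-DAP arrays 8 and 11 reached no threshold. The difference was -2.12 (SE 0.79) with U6 and -1.55 (SE 0.60) with the second reference, from wells at a Ct of 33.3 to 35.5. Without control array 4 it was -1.86 with U6 and not called, and with the second reference it was called neither without control array 4 nor without control array 7. The two-sided exact permutation p was 0.067 with U6, the smallest for these wells, and 0.13 with the second reference. Without Tri-DAP array 5 or 14, or with a Ct limit of 35, too few Tri-DAP wells were left for a test.

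MiR-124-3p, known as the most abundant miRNA of neurons, was called with U6 alone. It stood at -10.27, -9.25, -6.64 and -9.41 on the control arrays and at -14.03, -9.94, -14.64 and -8.95 on the Tri-DAP arrays. Tri-DAP arrays 5 and 11 were low, while arrays 8 and 14 lay within the controls. The difference was -3.0 (SE 1.26) with U6 and -2.76 (SE 1.40) with the second reference, at unadjusted p of 0.033 and 0.075 in limma and an exact permutation p of 0.20 for each. Leaving out Tri-DAP array 5 or 11, or control array 10, ended the call with U6, at -2.28, -2.08 and -2.24. Leaving out Tri-DAP array 14 gave -4.01 and a call with the second reference.

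MiR-423-5p was the one miRNA measured on all 8 arrays whose groups were separate. Relative to the second reference it stood at -2.26, -2.72, -2.65 and -2.50 on the control arrays and at -4.18, -2.80, -3.89 and -3.70 on the Tri-DAP arrays. Tri-DAP array 8 was just below the lowest control, and the other 3 Tri-DAP arrays were well below it. The difference was -1.11 (SE 0.40), or 0.46-fold, with an unadjusted p of 0.019 in limma and an exact permutation p of 0.029, the smallest possible. Of the 181 miRNAs measured on all 8 arrays, it was the 1 whose groups did not overlap with the second reference (0.552%), and with U6 there was 0. With U6 it stood at -11.15, -11.69, -12.07 and -11.28 against -13.33, -10.90, -13.61 and -13.73, and Tri-DAP array 8 was the highest of all. The difference with U6 was -1.34 (SE 0.72), not called, and it was -2.01 and called without Tri-DAP array 8. The call with the second reference was lost without Tri-DAP array 5, at -0.93.

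MiR-142-3p, a miRNA of blood cells, was the only called miRNA on the higher side. Relative to the second reference it stood at -6.50, -6.29 and -8.35 on control arrays 4, 10 and 13 and at -5.51, -4.86 and -5.21 on Tri-DAP arrays 5, 11 and 14. All 3 measured Tri-DAP values were above the controls, and control array 7 and Tri-DAP array 8 reached no threshold. The difference was 1.85 (SE 0.69), or 3.61-fold, from wells at a Ct of 33.1 to 36.6, and the exact permutation p was 0.10, the smallest for 3 against 3. With U6 it was 1.25 (SE 0.85) and not called. Leaving out control array 13 or Tri-DAP array 11 or 14 ended the call with the second reference, at 1.20, 1.68 and 1.86. MiR-223 and miR-150, which blood cells also carry, did not move with it, as given above.

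**Figure D4:**
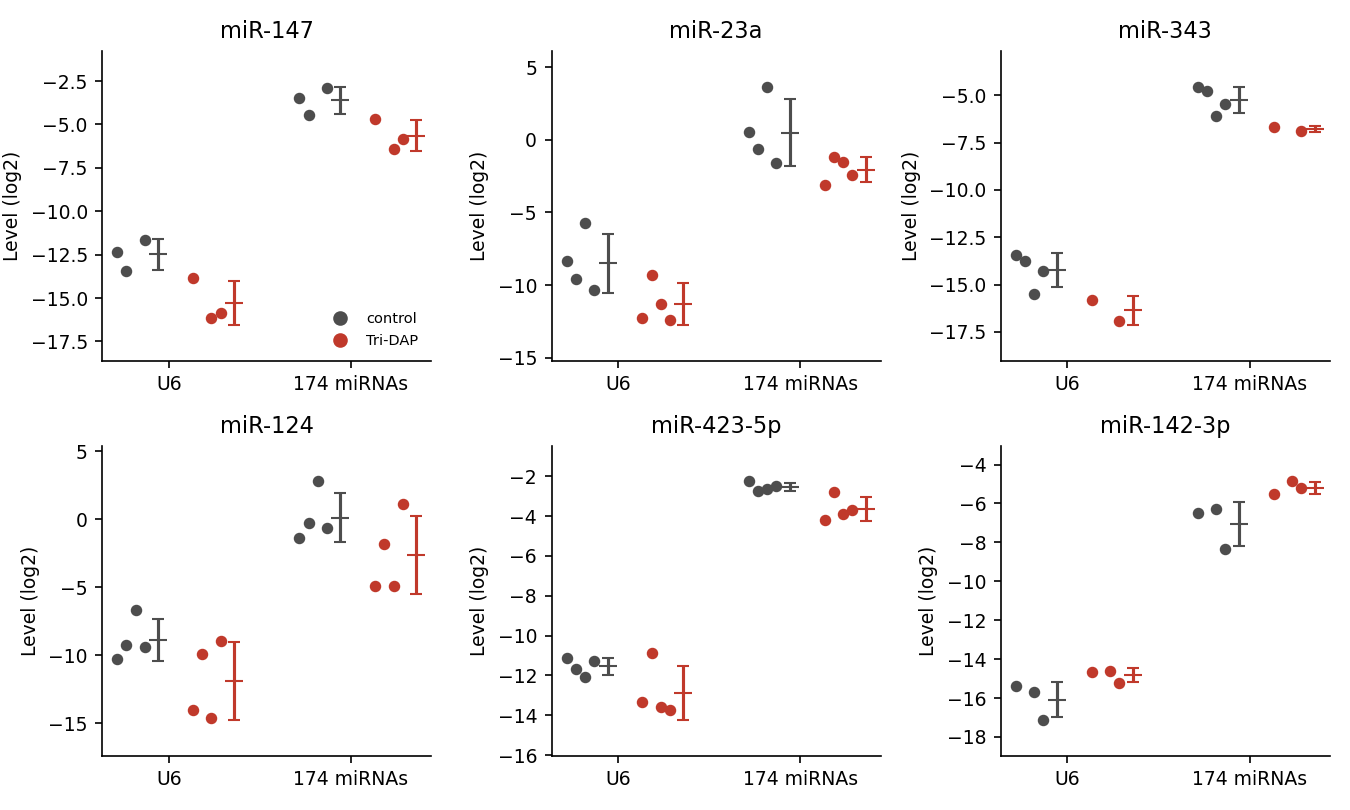
Level of the 6 miRNAs called with either reference, in log2 units, relative to U6 (left of each panel) and to the mean of the 174 miRNAs (right). Points are single arrays in the order of their numbers, grey for control and red for Tri-DAP, wells without a threshold are left out, and bars give mean and SD. The 4 values of miR-423-5p after Tri-DAP, from -4.18 to -2.80 with the second reference, lie below the controls.

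Among miRNAs with at least 3 measured wells in each group, 4 of 215 did not overlap with U6, which is 1.86%. These were miR-147-3p, miR-448 and miR-489 on the lower side and miR-142-3p on the higher. It was also 4 of 215 with the second reference, 1.86%, and miR-423-5p took the place of miR-448. MiR-448, from an intron of the serotonin receptor gene Htr2c, stood at -9.98, -8.37 and -8.98 relative to U6 on control arrays 4, 10 and 13 and at -11.82, -10.66 and -10.82 on Tri-DAP arrays 5, 11 and 14. Control array 7 and Tri-DAP array 8 reached no threshold. The difference was -1.99 (SE 0.97) with U6 and -1.39 (SE 0.87) with the second reference, and it was called with neither.

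Single arrays made up other large differences. MiR-337-5p had the largest difference below the control, -6.32 (SE 3.54) with U6. Its Ct was 22.4 and 21.9 on control arrays 4 and 10, and between 34.3 and 35.4 on the other 2 control and all 4 Tri-DAP arrays. It was not called, and its exact permutation p was 0.20. MiR-489 had a Ct of 28.8 on control array 13 and between 35.1 and 35.5 on the other 6 arrays that measured it, for a difference of -2.60 (SE 1.40) with U6. MiR-680 had the largest difference above the control, 4.64 (SE 3.74) with U6, from a Ct of 10.6 on Tri-DAP array 11 against 28.9 to 34.4 on the other 7 arrays. MiR-680, named here after its values were seen, is 1 of the 174 miRNAs of the second reference. Without such miRNAs the reference of Tri-DAP array 11 is 28.4 in place of 28.3.

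MiR-489 shares its seed with miR-425-5p, whose Ct was earlier on every array that measured both. MiR-425-5p stood at 1.98, 1.40, 0.36 and 0.39 on the control arrays relative to the second reference and at -0.78, 1.59, 0.66 and -1.63 on the Tri-DAP arrays. Tri-DAP arrays 5 and 14 were below all controls and arrays 8 and 11 among them. The difference was -1.07 (SE 0.66), not called.

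MiR-532-5p was read by a mouse assay and a rat assay, and these did not give the same picture. The rat assay stood at -10.49, -8.95, -9.18 and -9.52 relative to U6 on the control arrays and at -13.03, -9.38, -10.74 and -13.82 on the Tri-DAP arrays. Tri-DAP arrays 5 and 14 were low. The difference was -2.21 (SE 1.04) and not called. The mouse assay, with Ct values between 26.1 and 29.6, gave -0.18 (SE 0.64). MiR-183 and miR-196c, also among the smallest p, differed by -1.17 (SE 0.63) and -1.32 (SE 0.83) with U6 and were not called.

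The abundant miRNAs that the study links to NOD signalling showed differences near 0. MiR-146a, an NF-κB product that targets the adaptors IRAK1 and TRAF6, stood at 4.75, 4.74, 5.28 and 4.14 on the control arrays and at 5.27, 4.48, 5.28 and 3.95 on the Tri-DAP arrays, relative to the second reference. The groups overlapped, and only Tri-DAP array 14 lay below the lowest control. Its difference was 0.01, with a 95% interval of -0.90 to 0.93, and -0.22 with U6. MiR-10a, known for restraining NF-κB in endothelium, differed by -0.04 (-0.68 to 0.61), while miR-125a-5p differed by -0.22 (-1.09 to 0.64), both with the second reference.

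MiR-320 differed by 0.10 with the second reference (95% interval -1.31 to 1.51) and by -0.13 with U6. The miR-29 family, which targets collagen mRNAs, differed by -0.08 for miR-29a (-1.05 to 0.89), 0.36 for miR-29b (-1.38 to 2.09) and -0.01 for miR-29c (-1.05 to 1.03) with the second reference. None of the 3 was called with either reference. The sign of miR-10a, miR-146a, miR-320 and the miR-29 members changed with the reference or with single arrays left out.

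The study names 7 miRNAs of these arrays for Tri-DAP, and a list chosen on these samples is not independent evidence of its direction. All 7 means were below the control with both references, with medians of -1.34 and -0.79 beside -0.24 and 0.01 over all miRNAs, and 2 were called with U6 and 3 with the second reference, where 1.69% and 2.11% of all 237 were called. Of these, miR-147-3p, miR-343 and miR-423-5p are described above. MiR-495, part of the Dlk1-Dio3 region, stood at -2.10, -2.17, -2.76 and -1.96 on the control arrays and at -3.30, -2.93, -2.94 and -2.26 on the Tri-DAP arrays, relative to the second reference. Tri-DAP arrays 5, 8 and 11 were below all controls and array 14 among them. The difference was -0.61 (95% interval -1.41 to 0.18), with an exact permutation p of 0.057. MiR-667 of the same region differed by -0.59 (-1.62 to 0.44).

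MiR-298, which the study followed further, had a Ct of 30.45, 29.91, 33.81 and 30.26 on the control arrays and 31.95, 32.04, 30.91 and 32.10 on the Tri-DAP arrays. Control array 10 was later than all Tri-DAP arrays, and the other 3 controls were earlier. The difference was -0.76 (SE 1.03) with U6 and -0.52 (95% interval -2.42 to 1.37) with the second reference. It rested on single arrays. Without control array 10 it was -1.78 with U6, not called, and -1.42 and called with the second reference. Without control array 7 it was -0.23 and -0.0069. MiR-193, measured on 3 Tri-DAP arrays, differed by -1.40 (SE 0.91) with U6 and -0.79 (SE 0.87) with the second reference.

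The inflammation-induced miRNAs other than miR-147-3p were not called. MiR-155 stood at 2.84, 3.76, 3.30 and 3.01 on the control arrays and at 3.54, 3.30, 3.49 and 3.03 on the Tri-DAP arrays, relative to the second reference. All Tri-DAP values lay within the range of the controls. Its difference was 0.11 (95% interval -0.52 to 0.74), and that of miR-21 was 0.15 (-0.57 to 0.86). MiR-9, the list member furthest above the control, differed by 0.99 with U6 and 1.22 with the second reference. With the second reference it lay above the control mean on all 4 Tri-DAP arrays, by 2.20, 2.08, 0.45 and 0.16. Of the 174 miRNAs, 8 did so (4.60%). MiR-9 was called only with the second reference and consecutive label numbers as a block, where 5.51% of 236 miRNAs were called. With that reference 6 of the 7 members were above the control, and 3 were with U6. Of the 7 members tested, 1 was called lower and 0 higher with each reference, beside 1.69% and 2.11% called of all 237, and the list had a median of -0.08 with U6 and 0.15 with the second reference. The corresponding medians over all 237 miRNAs were -0.24 and 0.01.

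None of the 8 miRNAs of hypoxia and angiogenesis was called. MiR-210, the miRNA most closely tied to hypoxia, differed by -0.17 with U6 and 0.06 with the second reference. MiR-92a, which restrains vessel growth, differed by -0.10 and 0.13. MiR-296-3p, furthest from 0 in the list, differed by 1.13 (SE 0.88) with U6 and 1.35 (SE 0.81) with the second reference, from 3 control and 4 Tri-DAP wells. It was called without Tri-DAP array 14 with U6. With the second reference it was called without control array 10 and with consecutive label numbers as a block. The median of the list was -0.06 with U6 and 0.17 with the second reference. Of the NOD-targeting list, 6 of 7 were tested, miR-122 reached no threshold on any of the 8 arrays, 0 were called, and the medians were -0.36 and -0.13. Of the 3 neuronal miRNAs tested, miR-9 differed by 0.99 and miR-128a by -0.08 with U6, and neither was called.

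The let-7, miR-17 and miR-30 seed families had medians near that of all miRNAs. The let-7 family, which favours differentiation, had 9 members tested, all measured on 8 of 8 arrays. With U6, 6 were below the control and the median was -0.09. On the second scale 8 were above it, the median was 0.14 and the range -0.19 to 0.42. The 6 members of the miR-17 family, which promotes proliferation, ran from -0.37 to 0.09 around a median of -0.04 with the second reference. Of the miR-30 family 6 were tested, 5 of which lay between -0.08 and 0.15 with the second reference. The sixth, miR-384-5p, at a mean Ct of 35.4 and with 2 measured Tri-DAP wells, was at -1.18. None of these members was called with either reference. Among other families, that of miR-25 and miR-92 had a median of 0.47 over 4 members and that of miR-200b, miR-200c and miR-429 one of 0.58 over 3, with the second reference and 0 called.

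Genomic clusters differed among themselves. The 6 members of the miR-17 to miR-92a cluster ran from -0.31 for miR-19b to 0.13 for miR-92a with the second reference. The clusters around miR-99b, let-7e and miR-125a, around miR-532 and around miR-322 had medians of 0.01, 0.10 and -0.11 with the second reference and 0 calls. The miR-467 group in Sfmbt2, which rodents carry in many copies with near-identical sequences, had 6 members tested with a median of 0.03, and its assays may read one another's products. The 3 members of the miR-183, miR-96 and miR-182 cluster had a median of -1.17 with U6 and -0.39 with the second reference. Those around miR-200b and around miR-296, with 3 tested each, had medians of 0.58 and 0.56 with the second reference, and 0 of these 9 was called.

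The Dlk1-Dio3 region, an imprinted domain whose maternal chromosome carries one of the largest miRNA clusters of the mouse, had 47 assays on the array, of which 40 were measured and 24 tested. With U6, 21 were below and 3 above the control, with a median of -0.75, and with the second reference 17 were below and 7 above, with a median of -0.52. The corresponding medians over all 237 miRNAs were -0.24 and 0.01. None of the 24 was called with either reference. With arrays of consecutive label numbers as a block, a grouping chosen after seeing the data that no label states, 2 of them were called with U6 and 3 with the second reference, all lower, where 3.81% and 5.51% of all 236 miRNAs tested were called. Leaving out single arrays moved the median with U6 to -1.20 for Tri-DAP array 8 and to -0.38 for Tri-DAP array 5.

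The arrays of a group did not stand together in that region. For its 16 members measured on all 12 arrays, the median departure from the control mean, with the second reference, was -0.92, 0.81, -0.58 and 0.80 on control arrays 4, 7, 10 and 13. It was -1.07, -0.10, -0.73 and 0.85 on Tri-DAP arrays 5, 8, 11 and 14. Tri-DAP array 5 lay below and array 14 above every control, so that the spread within a group exceeded the difference between the groups. The mural miRNAs had another order, highest on arrays 13 and 14 and lowest on arrays 7 and 8, and their part in these values was not tested. Examples are miR-409-3p, at -0.73 (95% interval -2.26 to 0.79), and miR-376c, at -0.52 with the second reference.

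**Figure D5:**
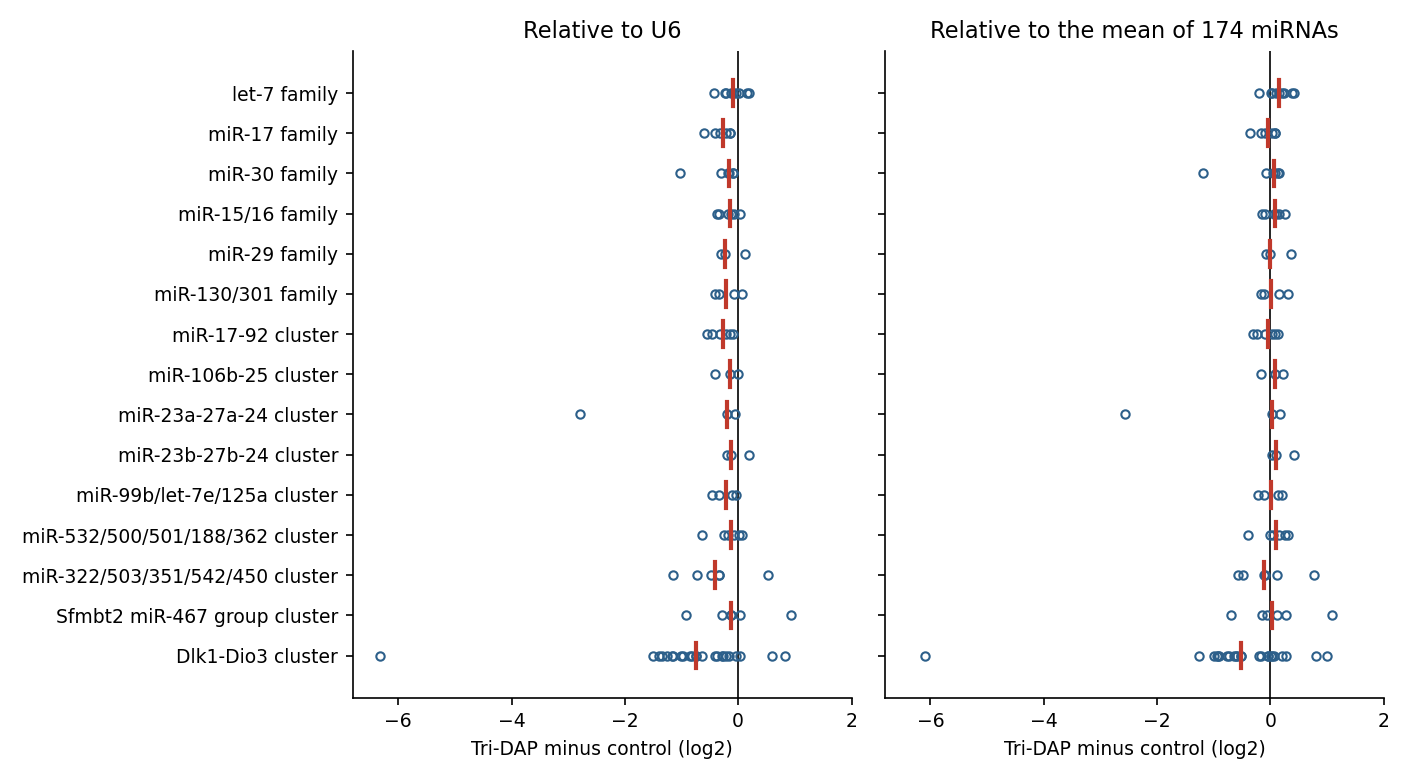
Difference between Tri-DAP and control in log2 units for the members tested of 6 seed families and 9 genomic clusters, relative to U6 (left) and to the mean of the 174 miRNAs (right). Each circle is a miRNA and each red bar the median of the group. The bars of the let-7, miR-17 and miR-30 families lie within 0.2 of 0 with the second reference, and that of the Dlk1-Dio3 cluster at -0.52.

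Detection gave a second readout that needs no reference. On the control arrays 248, 237, 232 and 252 miRNAs were measured, and on the Tri-DAP arrays 241, 231, 245 and 247. The two-sided exact permutation p was 0.86. Over all assays 969 wells were measured in control cells and 964 after Tri-DAP. Of the 95 miRNAs measured on unequal numbers of arrays, 49 were measured on fewer Tri-DAP arrays and 46 on more, and 82 of the 95 had a mean Ct over 30. The difference was 2 arrays or more for 16 miRNAs on the lower side (4.27% of 375) and for 13 on the higher (3.47%). None was measured on all 4 arrays of one group and on 0 of the other, the only pattern that could pass a Fisher test with 4 arrays a group.

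On at least 3 control arrays and at most 1 Tri-DAP array were 6 miRNAs. MiR-136 had a Ct of 34.9, 31.4, 35.9 and 37.8 on the control arrays and of 32.9 on Tri-DAP array 8, the one Tri-DAP array that measured it. MiR-215, miR-323-3p, miR-409-5p, miR-449b and miR-455 were each measured on 3 control arrays and 1 Tri-DAP array. MiR-136, miR-323-3p and miR-409-5p belong to the Dlk1-Dio3 region, as do miR-329 and miR-381, measured on 2 control arrays and 0 Tri-DAP arrays. MiR-382 and miR-654-3p of the same region went the other way, with 1 against 3 and 0 against 2, and the region as a whole had 109 wells measured in control cells and 104 after Tri-DAP.

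On at least 3 Tri-DAP arrays and at most 1 control array were 5 miRNAs. MiR-208b, from an intron of the cardiac and slow muscle gene Myh7, had a Ct of 31.0, 34.5, 34.1 and 30.6 on the Tri-DAP arrays and of 33.8 on control array 13. The 3 other control arrays reached no threshold. MiR-375, best known from pancreatic islets, had a Ct of 35.44, 33.43, 34.99 and 34.53 on the Tri-DAP arrays and of 34.99 on control array 7. MiR-133a, a muscle miRNA, and miR-382 and miR-383 were measured on 3 Tri-DAP arrays and 1 control array each. Their measured Ct values ran from 28.5 to 35.9. With wells at 40 missing, all 11 miRNAs of these patterns were measured too rarely for a test of the level. With those wells kept at 40, 8 of 375 miRNAs were called (2.13%), among them miR-208b at 5.79, miR-375 at 4.04 and miR-323-3p at -4.05, and the size of these differences depends on the value of 40.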

How the data were processed

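RNA of 12 cultures was run on TLDA cards of 384 wells, with 335 mouse and 40 rat miRNA assays and 9 control assays. The authors deposited the Ct of each well, with undetermined wells at 40, and normalized values, which are the Ct minus the mean of the 4 U6 wells and so log2 values with the sign turned. The normalized values were recomputed from the Ct values and matched to within 5.33e-15. The authors' own fold changes were not used, nor were 12 further columns without a sample name.

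The level was taken as minus the normalized value, with wells at 40 missing. MiRNAs with at least 2 measured values in each group were fitted in limma 3.58.1 (R 4.3.3, lmFit and eBayes) over all 12 arrays, with calls at an unadjusted p under 0.05 and Benjamini-Hochberg values beside them. Single values were compared with two-sided exact permutation tests (Python 3.11.15, numpy 2.4.6). The fit was tested on simulated data drawn independently for each miRNA and array. These hold no error shared within an array or an isolation, so the test does not cover such errors. Of the mouse assays, 243 matched a mature RefSeq sequence. Families and clusters started from written lists. Matched assays with the same bases 2 to 8 were added to families, and those with hairpins less than 10 kb apart to clusters. Pairs and loci outside the lists were formed by these rules alone. Sequences matched 39 of the 47 assays of the Dlk1-Dio3 region and 0 of the 9 of the Sfmbt2 group.

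Named are called miRNAs, those of smallest p, those whose groups did not overlap or that differed most in detection, list members, and miRNAs linked by the study to NOD signalling. The members and lists were chosen with earlier results of these data known. Alternatives were other references, limits on Ct and on measured values, the samples in the fit, the test, and single arrays left out. The number of arrays limits the precision.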

Additional observations from a re-analysis of the deposited data

Results flagged for a closer look

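In 4 of the 55 groups of 4 arrays examined, 1 array stood apart from the other 3 by Dixon's test. Chance gives about 1 in 20, or 2.75 groups. For miR-489 this was control array 13, at a Ct of 28.8, and for miR-196c it was Tri-DAP array 5, at 34.03. For miR-298 it was control array 10, at 33.8, and Tri-DAP array 11, at 30.9, so that the control array lay later than its group and the Tri-DAP array earlier than its own.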

How the results depend on the processing

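With the Benjamini-Hochberg adjustment, 0 miRNAs were called in every setting run. At an unadjusted p under 0.05, the count of 4 became 7 without normalization and 8 with wells at 40 kept, and it ran from 1 to 12 with single arrays left out with U6 and from 3 to 8 with the second reference. The share below the control, 75.1% with U6, was 49.8% with the second reference, and ran from 47.3% to 85.8% (U6) and from 43.9% to 54.5% (second reference) with single arrays left out. The share more than 2-fold below was 7.73% with all 4 values required, and ran from 10.4% to 27.2% and from 8.66% to 11.9%. The share more than 2-fold above was 5.49% with the second reference, 5.91% without normalization, 12% with wells at 40 kept, 1.84% with a Ct limit of 35 and 2.21% with all 4 values required, and ran from 2.16% to 5.24% and from 4.87% to 7.42%.

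The difference in the level per array ran from -0.62 to 0.030 with single arrays left out, and that in the number of miRNAs measured from -4.67 to 2.08. Signs changed for 7 miRNAs. MiR-146a was 0.014 and miR-320 0.10 with the second reference. With single arrays left out, over both references, miR-10a ran from -0.62 to 0.055, miR-29a from -0.80 to 0.20, miR-29b from -0.44 to 0.75, miR-29c from -0.73 to 0.31, miR-146a from -0.51 to 0.31, miR-193 from -2.10 to 0.073 and miR-320 from -0.45 to 0.61.

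The following were chosen after seeing the data. With the second reference and wells under Ct 15 missing, the shares were 47.3% below, 10.5% more than 2-fold below and 5.91% more than 2-fold above, and miR-29c was 0.020, miR-146a 0.042 and miR-320 0.13. The labels give each array a number of its own and do not state which arrays share an isolation. With consecutive label numbers as a replicate block, 9 of 236 miRNAs were called with U6 (3.81%) and 13 with the second reference (5.51%). Among them were miR-337-5p and miR-487b of the Dlk1-Dio3 region with U6, and miR-409-3p, miR-487b and miR-667 of that region with the second reference, where miR-142-3p and miR-343 lost their calls. The deviations of consecutive arrays correlated at -0.12 to 0.42 over the 174 miRNAs and at 0.17 to 0.91 over the 69 earliest of them. Other pairings of a control and a Tri-DAP array gave -0.32 to 0.24 and -0.76 to 0.57. The shares in the latter block were 49.2%, 10.2% and 5.51%, with miR-146a at 0.014 and miR-320 at 0.10. The cause of these changes was not tested.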
